A study of Arabidopsis thaliana with 4 samples.

Results

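Glucosinolates are sulfur-rich defence compounds of the cabbage order, and the aliphatic kinds are built from methionine whose side chain has been lengthened. After the core structure is complete, the side chain is modified: flavin monooxygenases of the FMO GS-OX group oxygenate the sulfur of methylthioalkyl glucosinolates, AOP2 and AOP3 convert the methylsulfinyl products to alkenyl or hydroxyalkyl forms, and GSL-OH hydroxylates an alkenyl side chain. These last steps help decide which breakdown products a damaged leaf releases, and the genes differ between natural accessions of Arabidopsis thaliana.

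The genes described are FMO GS-OX1 to FMO GS-OX5, AOP2, AOP3 and GSL-OH, 8 in all, chosen by locus for their place in the pathway, with earlier results of these data known. Of these, 7 had a row among the 33059 features of the expression table, and AOP2 was not analysed here. RNA of rosette leaves was sequenced from plants aged 28 days. Plants that carry ERF4, a repressor-type transcription factor of the ethylene response, behind the viral 35S promoter, which is active in most plant tissues (OE), were compared with wild-type plants (WT), with 2 libraries per genotype. The labels name neither the accession nor the number of transgenic lines, and do not tell if separate plants gave the replicates, so the spread behind each p-value is that between libraries and may be technical. Because the values are TPM (transcript abundances that allow for transcript length and share a common total per library), levels can be compared between genes, but the depth of each library is unknown.

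ERF4 itself had 24.5 and 28.8 TPM in the OE libraries, against 9.68 and 10.6 TPM in the WT libraries, in the direction of the labels (log2 fold change 1.31, limma adjusted p = 0.381). The mesophyll markers RBCS1A, CAB1, LHCB2.1, CA1, RCA and GLDP1 were abundant in every library, matching the leaf label, with summed levels of 26588 and 41784 TPM in OE and 53680 and 20217 TPM in WT. Both pollen markers were listed at 0 throughout, and 4 of 7 flower markers stayed under 1 TPM in every library. The 2 guard cell and 4 phloem markers had 0 called members (limma, 0 and 1 at an unadjusted p under 0.05). Of all tested features 0.03% were called lower, 0.06% were called higher and 5.3% had an unadjusted p under 0.05. For 2 of the 4 phloem markers both OE values were above both WT values (13.7% of all tested features), and the median log2 fold change of the 4 was 0.535. The 3 root markers EXPA7, EXPA18 and PRP3 were present in every library, at odds with a label of leaf alone. EXPA7, for one, had 21.0 and 16.3 TPM in OE and 13.3 and 17.2 TPM in WT. All 3 overlapped between genotypes, with summed levels of 298 and 222 TPM in OE and 267 and 514 TPM in WT. The part of root tissue in these samples was not tested. Of 10 seed markers 6 were tested, and for 5 of those both OE values were under both WT values (14.2% of all tested features). Among those 5, OLEO1 and EM1 averaged 0.445 and 0.265 TPM in OE and were tested only through their WT level. The same holds for CRU3, so the filter had a part in that count. The summed level of the 10 was 24.4 and 10.4 TPM in OE and 58.7 and 76.0 TPM in WT. The storage protein gene CRU3 was called lower (limma adjusted p = 0.0182, beside 0.03% of all tested features), but it passed the filter for testing (1 TPM on average over the libraries) only through its WT level, and no feature was called by limma with no filter, quantile normalization, median-ratio scaling or either WT library left out.

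Among the oxygenases, FMO GS-OX1 and FMO GS-OX3 were lower in both OE libraries than in either WT library, about 8- and 15-fold by their means, whereas FMO GS-OX4, FMO GS-OX5 and GSL-OH had OE means within about 1.5-fold of their WT means. No side-chain gene passed the threshold over all genes, a limma adjusted p (Benjamini-Hochberg) of 0.05 over the 20010 features that averaged 1 TPM or more. Of the 5 side-chain genes tested, 0 were called in either direction against 0.03% of all tested features called lower and 0.06% called higher. An unadjusted p under 0.05 was reached by 2 of the 5 and by 5.3% of all tested features. Leaf RNA comes from a mixture of cells, so fewer cells of a type and less RNA per cell cannot be told apart.

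FMO GS-OX1 (AT1G65860), which oxygenates methylthioalkyl glucosinolates over a broad range of chain lengths, had 3.21 and 1.40 TPM in the OE libraries and 26.8 and 9.67 TPM in the WT libraries. Its mean was 2.31 ± 1.28 TPM in OE and 18.2 ± 12.1 TPM in WT (SD, n = 2 each), 7.91-fold higher in WT. The groups did not overlap, yet WT replicate 1 was 2.77 times WT replicate 2. On the log2(TPM + 1) scale, which understates the change of low genes, the difference was -2.44 (SE 0.501, 95% interval -3.54 to -1.33) and did not pass (limma adjusted p = 0.175). Of the 20010 features, 41 (0.205%) had a log2 fold change at least as low.

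FMO GS-OX3 (AT1G62560), an oxygenase of the same broad range, had 2.06 and 1.12 TPM in the OE libraries, against 39.1 and 9.13 TPM in the WT libraries. Here too the groups did not overlap, and WT replicate 1 was the high library, at 4.29 times WT replicate 2. The mean was 1.59 ± 0.665 TPM in OE and 24.1 ± 21.2 TPM in WT (SD, n = 2 each), 15.2-fold higher in WT with an SD nearly as large as the WT mean. The log2 fold change of -2.98 (SE 0.574, 95% interval -4.25 to -1.72) was the lowest of the side-chain genes and did not pass either (limma adjusted p = 0.144). At least as low were 16 of the 20010 features (0.08%).

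FMO GS-OX2 (AT1G62540), another S-oxygenase, was scarce, with 0.18 and 0.68 TPM in the OE libraries and 1.48 and 1.17 TPM in the WT libraries. Both OE libraries lay below both WT libraries, but its mean over all libraries, 0.878 TPM, was under the filter and it was not tested. FMO GS-OX2, FMO GS-OX3 and FMO GS-OX4 are consecutive coding genes on chromosome 1 in the RefSeq table for assembly TAIR10.1, and FMO GS-OX1 and FMO GS-OX5 stand elsewhere on the same chromosome. Some reads may fit more than 1 of these related genes, and how such reads were assigned is not stated. Their separate values may thus carry an uncertainty that the table does not show.

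FMO GS-OX4 (AT1G62570), the immediate neighbour of FMO GS-OX3, had 17.6 and 24.2 TPM in the OE libraries and 15.9 and 11.8 TPM in the WT libraries. Both OE libraries were above both WT libraries, though OE replicate 1 and WT replicate 1 stood close together. The mean was 20.9 ± 4.64 TPM in OE and 13.9 ± 2.86 TPM in WT (SD, n = 2 each), a ratio of 1.51, and the log2 fold change of 0.55 (SE 0.369, 95% interval -0.26 to 1.37) did not pass (limma adjusted p = 1.0).

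FMO GS-OX5 (AT1G12140), known to prefer the longest side chains, had 36.2 and 29.04 TPM in the OE libraries and 29.4 and 40.6 TPM in the WT libraries. The groups overlapped, with both OE values inside or just below the WT range. Its mean was 32.6 ± 5.05 TPM in OE and 35.0 ± 7.94 TPM in WT (SD, n = 2 each), and the log2 fold change was -0.09 (SE 0.374, 95% interval -0.91 to 0.74, limma adjusted p = 1.0).

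GSL-OH (AT2G25450), an oxoglutarate- and iron-dependent oxygenase that hydroxylates the butenyl side chain, was the most abundant of the 7 genes in every library. Its level was 538 and 328 TPM in OE and 385 and 621 TPM in WT, so the groups overlapped. The mean was 433 ± 149 TPM in OE and 503 ± 167 TPM in WT (SD, n = 2 each), a difference smaller than the spread within either genotype (log2 fold change -0.22, SE 0.526, 95% interval -1.38 to 0.94, limma adjusted p = 1.0).

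AOP3 (AT4G03050), which makes hydroxyalkyl glucosinolates, was listed at 0 in all 4 libraries. In the RefSeq table AOP2 lies between AOP3 and AOP1 on chromosome 4 and is typed as a transcribed pseudogene. AOP1 (AT4G03070), a related dioxygenase at the same locus with no settled role in side-chain modification, had 3.73 and 5.16 TPM in the OE libraries and 11.5 and 7.46 TPM in the WT libraries. It was lower in both OE libraries, with a log2 fold change of -0.93 (SE 0.391) that did not pass (limma adjusted p = 0.862).

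**Figure D1:**
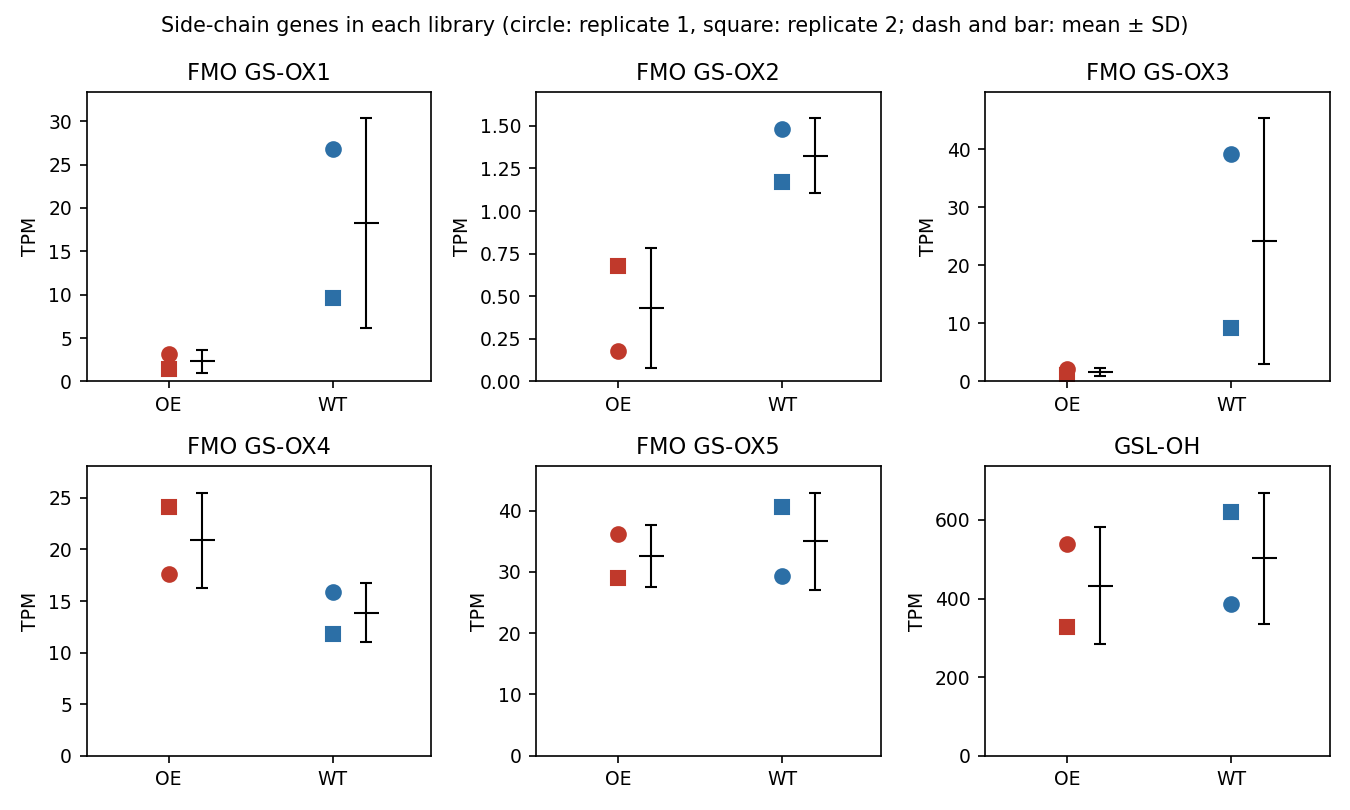
TPM of the 6 side-chain genes with a value above 0, in panels with their own axes from 0; points are libraries (OE in red, WT in blue, circle for replicate 1, square for replicate 2), and the dash with its bar is the mean ± SD (n = 2). FMO GS-OX1 and FMO GS-OX3 sit at 1.12 to 3.21 TPM in OE and 9.13 to 39.1 TPM in WT, whereas OE and WT points interleave for FMO GS-OX5 and GSL-OH.

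Taken as a list, both OE libraries were below both WT libraries in 2 of the 5 tested genes and above them in 1, beside 14.2% and 13.7% of all tested features. The median log2 fold change of the 5 was -0.22, beside -0.02 over all tested features, so the middle of the list stood near that of all genes while its lowest members did not. The order of the mean levels differed between genotypes. In OE it ran GSL-OH, FMO GS-OX5, FMO GS-OX4, FMO GS-OX1, FMO GS-OX3 and FMO GS-OX2. In WT, FMO GS-OX3 and FMO GS-OX1 came before FMO GS-OX4, but the WT libraries of these 3 genes overlapped, as did those of FMO GS-OX3 and FMO GS-OX5, so their order in WT is not separated by the spread between libraries. In OE the only neighbours in the order whose libraries overlapped were FMO GS-OX1 and FMO GS-OX3. FMO GS-OX5 and FMO GS-OX4 were both above FMO GS-OX1 and FMO GS-OX3 in every OE library, by 17.6 TPM or more against 3.21 TPM or less.

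Shares of the summed TPM of the 5 oxygenases were also compared. FMO GS-OX1 and FMO GS-OX3 together held 8.90% and 4.47% of their summed TPM in the OE libraries, against 58.5% and 26.0% in the WT libraries. FMO GS-OX4 and FMO GS-OX5 together held 90.8% and 94.3% in OE and 40.2% and 72.4% in WT. The summed level of the pool was 59.2 and 56.4 TPM in OE and 113 and 72.4 TPM in WT, higher in both WT libraries, mostly in WT replicate 1. The share of FMO GS-OX5, the largest in OE, overlapped, at 61.1% and 51.5% in OE and 26.1% and 56.1% in WT. FMO GS-OX4 alone made up 36.3 ± 9.28% of the pool in OE and 15.2 ± 1.59% in WT (SD, n = 2 each). A share of a sum is also higher where other members are lower, and the mean TPM of FMO GS-OX4 itself was only 1.51-fold higher in OE.

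**Figure D2:**
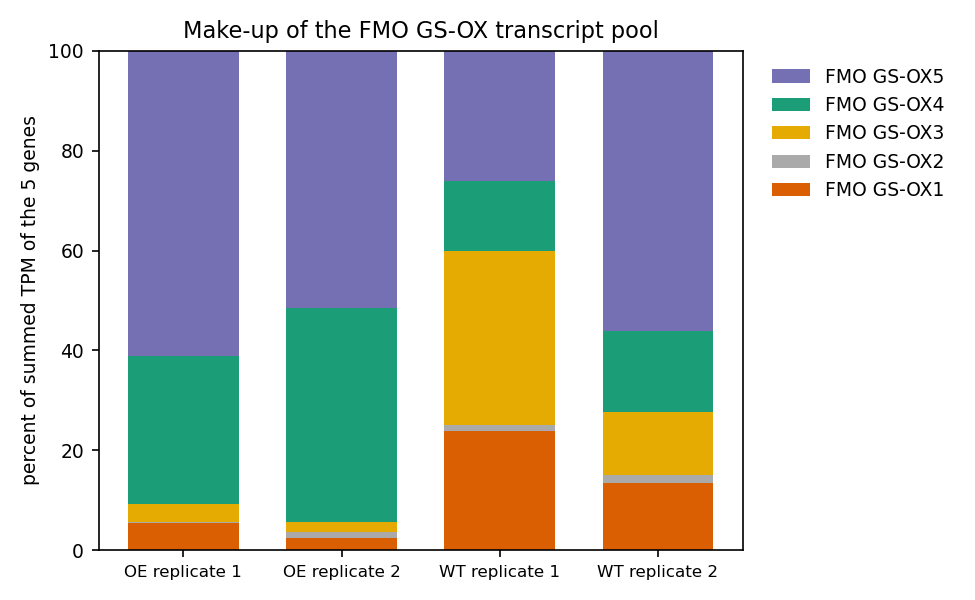
Share of each FMO GS-OX gene in the summed TPM of the 5 genes, in percent, with 1 stacked bar per library. FMO GS-OX1 and FMO GS-OX3 together fill 8.90% and 4.47% of the OE bars and 58.5% and 26.0% of the WT bars.

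To set members against each other within a library, log2 ratios of TPM + 1 to FMO GS-OX5 were taken. For FMO GS-OX3 this ratio was -3.60 and -3.82 in the OE libraries and 0.40 and -2.04 in the WT libraries, a difference of means of -2.90. For FMO GS-OX1 it was -3.14 and -3.65 in OE and -0.13 and -1.96 in WT, a difference of -2.35. Both ratios were lower in both OE libraries than in either WT library. The ratio of FMO GS-OX4 overlapped, at -0.999 and -0.26 in OE and -0.85 and -1.70 in WT. The exact two-sided permutation test gave p = 0.333 for FMO GS-OX1 and FMO GS-OX3, the smallest p that 2 libraries against 2 allow, and p = 0.667 for FMO GS-OX4 (3 ratios compared), so this permutation test cannot reach 0.05 for a single ratio.

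Leaving out 1 library at a time did not change the sign for FMO GS-OX1, FMO GS-OX3 or FMO GS-OX4. Without WT replicate 1 the log2 fold change was -1.75 for FMO GS-OX1 and -1.99 for FMO GS-OX3, and without WT replicate 2 it was -3.13 and -3.98. For GSL-OH the sign depended on the libraries: it was 0.14 when OE replicate 2 was left out and 0.12 when WT replicate 2 was, and -0.58 and -0.56 without OE replicate 1 and WT replicate 1. FMO GS-OX5 turned in the same fits, to 0.06 without OE replicate 2 and 0.14 without WT replicate 2. Whether FMO GS-OX1 and FMO GS-OX3 were called depended on the fit. Without OE replicate 1 both were called lower (limma adjusted p = 0.0301 for FMO GS-OX1 and 0.0179 for FMO GS-OX3, where 0.265% of features were called lower), a fit with a single OE library that is assumed to vary like the WT libraries and with 1 residual degree of freedom. In the other 3 fits with a library left out neither gene was called (limma adjusted p from 0.127 to 0.853). Both were also called when only features averaging 5 TPM or more were tested (limma adjusted p = 0.0473 and 0.0207, with 0.161% of features called lower), a filter that these genes passed only through their WT level. A robust variance prior called FMO GS-OX1 alone of the 5 (limma adjusted p = 0.0188, with 0.245% of features called lower). The replicate number as a block called both (limma adjusted p = 7.97e-05 for FMO GS-OX1 and 2.47e-07 for FMO GS-OX3, with 0.76% of features called lower). Nothing in the labels pairs the libraries, and that block fit has 1 residual degree of freedom. Its prior degrees of freedom were infinite, so the variance of each gene was that of the trend over all features. The spread of the gene's own replicates did not enter those 2 p-values (SE 0.475 and 0.476).

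**Figure D3:**
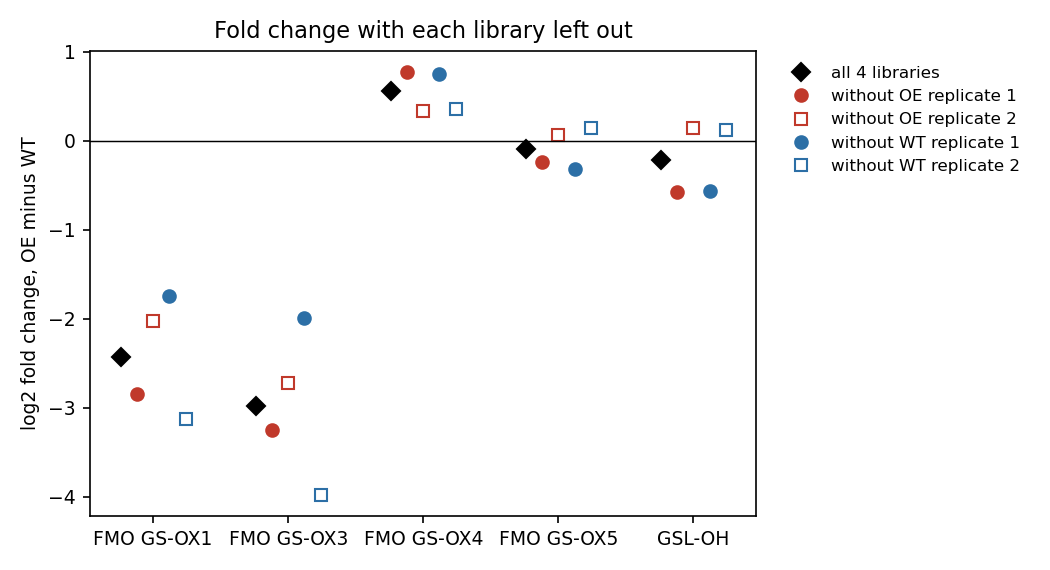
Log2 fold change (OE minus WT) of the 5 tested side-chain genes on the log2(TPM + 1) scale with all 4 libraries (black diamond) and with each library left out (red for an OE library, blue for a WT library; filled for replicate 1, open for replicate 2). FMO GS-OX1 and FMO GS-OX3 stay between -3.98 and -1.75 with any library left out, and FMO GS-OX5 and GSL-OH fall on both sides of 0.

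Within a genotype the side-chain genes followed different libraries. FMO GS-OX1 and FMO GS-OX3 were highest in WT replicate 1, then WT replicate 2, then OE replicate 1, and lowest in OE replicate 2, an order seen in 3.78% of all tested features. GSL-OH and FMO GS-OX5 were instead higher in OE replicate 1 and WT replicate 2 and lower in OE replicate 2 and WT replicate 1. The 6 mesophyll markers were all higher in WT replicate 1 than in WT replicate 2, like FMO GS-OX1 and FMO GS-OX3 and unlike GSL-OH. Between the OE libraries they split: CAB1, LHCB2.1 and CA1 were higher in OE replicate 2, and RBCS1A, RCA and GLDP1 in OE replicate 1. CAB1 had 5468 and 20086 TPM in the OE libraries and 18396 and 5133 TPM in the WT libraries, and RBCS1A 13701 and 11396 TPM in OE and 20976 and 9316 TPM in WT. The part of such differences between leaf samples in the side-chain values was not tested. Seed markers, whose summed level was lower in both OE libraries, were mixed between the WT libraries. CRA1 had 0.33 and 2.78 TPM in OE and 29.5 and 14.6 TPM in WT, highest in WT replicate 1 like FMO GS-OX1 and FMO GS-OX3. CRU3 had 0.04 and 0.21 TPM in OE and 10.04 and 25.2 TPM in WT, and SESA2, which overlapped between genotypes, had 23.8 and 3.51 TPM in OE and 0.26 and 11.7 TPM in WT. The part of seed transcripts in the result was not tested.

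The steps that precede side-chain modification were read from lists of the aliphatic pathway. Of 9 chain elongation genes, all tested, 0 were called and 6 had an unadjusted p under 0.05 (limma), 7 were lower in both OE libraries than in either WT library, and the median log2 fold change was -1.71. Over all tested features 0.03% were called lower, 5.3% had an unadjusted p under 0.05 and 14.2% were lower in both OE libraries, and the counts of the lists that follow stand beside the same shares. The smallest p values were those of IPMI1, a small subunit of isopropylmalate isomerase (37.3 and 6.97 TPM in OE, 140 and 60.4 TPM in WT, limma adjusted p = 0.394), and MAM1, the methylthioalkylmalate synthase of the condensation step (70.8 and 46.9 TPM in OE, 265 and 128 TPM in WT, limma adjusted p = 0.416). Of 11 core structure genes 0 were called and 10 had an unadjusted p under 0.05 (limma), 11 were lower in both OE libraries (14.2% of all tested features), and the median was -1.86. Lowest in p were SOT17, a desulfoglucosinolate sulfotransferase (18.8 and 10.2 TPM in OE, 70.4 and 46.2 TPM in WT, limma adjusted p = 0.187), and CYP79F1, the cytochrome P450 that opens core synthesis (3.75 and 2.89 TPM in OE, 108 and 14.1 TPM in WT, limma adjusted p = 0.204).

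Set beside these 20 genes, the side-chain genes stood at both ends. FMO GS-OX1 and FMO GS-OX3 had lower log2 fold changes than all of them but CYP79F1. FMO GS-OX5, GSL-OH and FMO GS-OX4 had higher ones than every pathway gene of the 20. However, GSL-OH, at -0.22 (SE 0.526), was barely above the chain elongation gene MAM3, at -0.27 (SE 0.550). MAM3 had 94.3 and 25.2 TPM in OE and 51.9 and 67.8 TPM in WT, so its groups overlapped too. By the ratio of mean TPM, OE over WT, MAM3 (0.998) stood above FMO GS-OX5 (0.932) and GSL-OH (0.861), so neither was set apart from it. The descending order of libraries shared by FMO GS-OX1 and FMO GS-OX3 was found in 17 of the 20, an order looked for after the values were seen and read against its 3.78% among all features; genes of 1 pathway in 4 libraries are not independent. GSL-OH and FMO GS-OX5 did not show it.

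**Figure D4:**
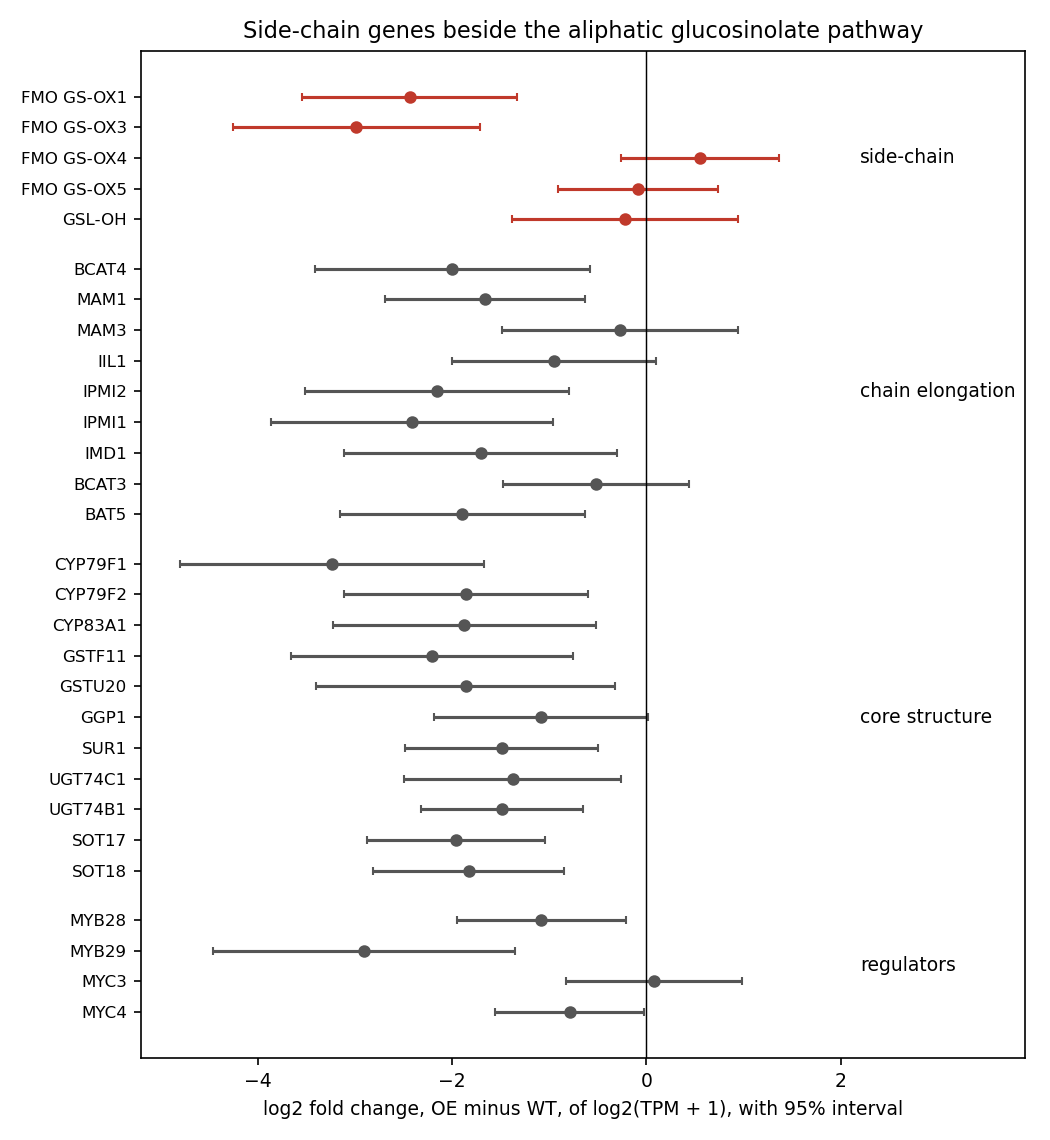
Log2 fold change (OE minus WT) on the log2(TPM + 1) scale with its 95% interval, before adjustment for the number of features, for the tested side-chain genes (red) and for chain elongation, core structure and regulator genes (grey). FMO GS-OX1 at -2.44 and FMO GS-OX3 at -2.98 lie at the low end with CYP79F1. FMO GS-OX4 at 0.55, FMO GS-OX5 at -0.09 and GSL-OH at -0.22 lie to the right of the 20 elongation and core genes. The nearest of the 20 is MAM3 at -0.27, close to GSL-OH, with intervals that overlap.

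Of the 6 regulators listed 4 were tested, 0 were called, 3 had an unadjusted p under 0.05 (limma) and 3 were lower in both OE libraries, beside 0.03%, 5.3% and 14.2% of all tested features. MYB29, a transcription factor of the aliphatic pathway, had 0.17 and 0.50 TPM in OE and 23.6 and 3.02 TPM in WT (log2 fold change -2.91, limma adjusted p = 0.268), and passed the filter only through WT. MYB28, its close relative and the main activator of the pathway, had 22.0 and 17.0 TPM in OE and 54.7 and 32.4 TPM in WT (log2 fold change -1.08, limma adjusted p = 0.684). Again WT replicate 1 was the highest library for both.

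Profiles over the 4 libraries were compared by Euclidean distance between log2(TPM + 1) values centred on each gene's mean, among 7135 features with a symbol and a mean of at least 5 TPM. Nearest to FMO GS-OX3 was CYP79F1 at 0.687, followed by HEMA1, a glutamyl-tRNA reductase of tetrapyrrole synthesis, at 0.746, and MYB29 at 0.772. Nearest to FMO GS-OX1 were ENH1, a rubredoxin-like protein, at 0.504, GH3.9, a member of the GH3 acyl-amido synthetase family, at 0.537, and BAT5, the plastid transporter of the chain elongation pathway, at 0.689. CYP79F1, MYB29 and GH3.9 met the bound of 5 TPM only through WT. In the OE libraries CYP79F1 had 3.75 and 2.89 TPM, MYB29 0.17 and 0.50 TPM, and GH3.9 2.71 and 0.81 TPM. The bound thus had a part in which genes could stand near FMO GS-OX1 and FMO GS-OX3. The distance grows with the size of the differences between libraries, so its values cannot be compared between members. The nearest genes to GSL-OH, FMO GS-OX4 and FMO GS-OX5 stood at 0.0394 (TTR1), 0.0686 (TUB8) and 0.0220 (DGL1) in that order, and none of the 3 nearest to each was a gene of the glucosinolate lists. With 4 libraries, such distances describe these samples and no more.

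The other flavin monooxygenases in the same part of the family, are 9 loci so named in the reference annotation. Of the 6 tested, 0 were called and 0 had an unadjusted p under 0.05 (limma), 2 were lower in both OE libraries (14.2% of all tested features), and log2 fold changes ran from -0.79 to 0.11 with a median of -0.16. The gene with the smallest p, AT1G62620, had 1.41 and 0.86 TPM in OE and 3.28 and 2.15 TPM in WT, and AT1G63390 had 1.69 and 0.63 TPM in OE and 1.70 and 3.35 TPM in WT. AT1G62600, a few genes from FMO GS-OX4 in gene order, held 22.5 and 19.8 TPM in OE and 20.1 and 19.7 TPM in WT, and AT1G12200 was the most abundant of the 9 by mean, at 39.03 and 18.7 TPM in OE and 19.3 and 32.5 TPM in WT.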

How the data were processed

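The deposited table gives TPM by gene for each library; fastp, HISAT and RSEM are named in the submitters' processing notes without versions or roles, and no source used here names the genome build or annotation. TPM keeps no read number, so depth and counting intervals are unknown. WT replicate 2 takes its number from the title; its column bears the number 3 and was matched by the sample's description. The authors' mean columns were used in no test. Names and gene order came from RefSeq (TAIR10.1), which 32548 features matched, and no coordinates were used.

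Values were log2(TPM + 1) for features averaging 1 TPM or more. OE was compared with WT with limma 3.58.1 (R 4.3.3), fitting a variance trend, two-sided, Benjamini-Hochberg adjusted over all 20010 features; the fit left 2 residual degrees of freedom, to which the prior brought 8.73. The fit was run on data simulated from its own variance model with known changes added. That run checked the mean estimates, not the error rate of calls in these data. Intervals are 95%. Python 3.11.15 drew the figures.

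The genes and lists were chosen with earlier results of these data known. All 8 side-chain genes were named, and from each pathway list the called genes or the 2 with the smallest p; others were chosen after their values were seen. Markers whose symbol differs in RefSeq were dropped. Alternatives were other pseudocounts, filters, scalings and variance priors, the replicate block and leaving out each library.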

Additional observations from a re-analysis of the deposited data

How the results depend on the processing

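The signs of FMO GS-OX1, FMO GS-OX3 and FMO GS-OX4 held in all 14 alternatives. Log2 fold changes ran from -3.13 to -1.57 for FMO GS-OX1 and from -3.98 to -1.93 for FMO GS-OX3, the ends nearest 0 being those with a pseudocount of 5. Leaving out 1 library gave -0.32 to 0.14 for FMO GS-OX5 (0.06 without OE replicate 2, 0.14 without WT replicate 2), -0.58 to 0.14 for GSL-OH (0.14 and 0.12 in the same fits) and -0.58 to 0.12 for the median of the tested side-chain genes; the median of all features then moved between -0.16 and 0.14. Called features, 18 in the reported limma fit with 1061 at an unadjusted p under 0.05, numbered 63 with a mean of at least 5 TPM and 108 with a robust variance prior. There were 0 with no filter, 0 with quantile normalization and 0 with median-ratio scaling (limma, 1072, 1114 and 1133 at an unadjusted p under 0.05), and 0 to 147 with 1 library left out. Called side-chain genes, 0 in the reported fit, numbered 2 with a mean of at least 5 TPM and 1 (FMO GS-OX1) with a robust variance prior. The log2 fold changes of FMO GS-OX1 and FMO GS-OX3 in these 2 fits were those of the reported fit, -2.44 and -2.98. The prior brought 8.73 degrees of freedom in the reported fit and 17.1 with a mean of at least 5 TPM. It brought 3.49 with no filter, 3.21 with quantile normalization and 3.2 with median-ratio scaling. The cause of the differences in calls was not tested. Replicate numbers did not pair the samples by any label, and the differences between replicates 1 and 2 in OE and in WT had a correlation of 0.0325 across features. The replicate block gave 338 called features and 2 called side-chain genes (FMO GS-OX1 and FMO GS-OX3). That fit had 1 residual degree of freedom and took every variance from the trend over all features. Genes near 1 TPM, such as FMO GS-OX2, cannot be judged without the read numbers.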

Other observations

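Some genes of the same lists were too low to test. BZO1 and scpl17, which act in benzoylated glucosinolates of seeds, had at most 0.25 TPM in the OE libraries and at most 0.34 TPM in the WT libraries. For each, both OE libraries lay below both WT libraries. That order was seen in 14.2% of all tested features, which average 1 TPM or more and include neither gene. No share was taken among features this low. Values this near 0 cannot be judged without the read numbers. MYB76, the third of the aliphatic MYB factors, had 0 and 0.19 TPM in the OE libraries and 2.71 and 0.04 TPM in the WT libraries, so its level in WT came from replicate 1, the library in which FMO GS-OX1 and FMO GS-OX3 were also highest. MYC2, a jasmonate-responsive partner of these factors, was listed at 0 and 1.07 TPM in the OE libraries and at 0.26 and 0 TPM in the WT libraries. Its relative MYC3 had 52.6 and 54.7 TPM in OE and 37.2 and 69.1 TPM in WT. MYC4, also listed, was lower in both OE libraries, at 11.3 and 11.9 TPM against 19.5 and 22.1 TPM in WT. Its log2 fold change of -0.79 did not pass (limma adjusted p = 0.911). The sugar transporter genes SWEET11 and SWEET12 of phloem parenchyma were higher in both OE libraries than in both WT libraries, an order seen in 13.7% of all tested features. The other phloem markers, SUC2 and APL, overlapped between genotypes. SWEET12 had 44.0 and 79.8 TPM in OE and 14.9 and 33.9 TPM in WT, and neither SWEET gene passed (limma adjusted p = 0.617 for SWEET12).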
